A study of Mus musculus with 2 samples.

Results

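The genes described here are 33 autophagy and lysosome genes, out of 23462 genes that could be named on the array. They were chosen by name, with earlier results of these data known. The autophagy genes (19) are core machinery, the cargo receptor gene Sqstm1 and the transcription factor genes Tfeb, Tfe3 and Mitf. The lysosome genes (14) encode membrane proteins and enzymes of the lysosome. Every probe of a member that was not a control probe was taken, which gave 53 probes on 71 spots. Expression was measured on 2 one-colour Agilent arrays, 1 for each of 2 cultures of CD8 T cells from C57BL/6 mice. Naive CD8 T cells (CD44 low, CD62L high) had been purified from spleen and activated for 2 days through the T cell receptor (antibody at 3 µg/ml) and CD28 (antibody at 1 µg/ml), with interleukin-2 at 10 ng/ml. One culture received the synthetic glucocorticoid prednisolone at 1 µM during that time and the other received vehicle. Both were then rested for 3 days in interleukin-2 on a new plate, and RNA was taken on day 5. The number of mice behind each culture is not given in the labels.

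Macroautophagy wraps cytoplasm in a double membrane, the autophagosome, and delivers it to the lysosome, where hydrolases digest it. A kinase complex starts the process, a lipid kinase complex marks the membrane, and 2 ubiquitin-like conjugation systems attach proteins of the ATG8 family to it. The same lysosomal compartment matters to a cytotoxic T cell in another way, since its lytic granules are secretory lysosomes that carry cathepsins beside the granzymes. The transcription factors TFEB, TFE3 and MITF are known to bind E-box sequences in front of many autophagy and lysosome genes.

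With 1 array per condition there was no replicate, so no p-value and no spread between cultures could be given, and each difference below describes these 2 arrays. A processed signal is the background-subtracted brightness of a probe in intensity units. A difference is the log2 of the prednisolone signal over the vehicle signal after each array was divided by its own 75th percentile (400.4 for vehicle, 386.9 for prednisolone), and ± is the scanner software's technical error. Levels of different probes are not compared, because probes differ in how brightly they hybridise. The label of the cells was checked with Cd8a, the gene of the CD8 α chain. Its brighter probe had 6030 with vehicle and 6045 with prednisolone, and the mean over its probes was −0.01 ± 0.14. Cd8a was among 10 measured CD8 T cell markers, which were not all level. Of these, 8 lay below 0 (49.9% of all measured genes) and 2 above, with a median of −0.38. Under spike-in scaling 6 lay below 0 (31.2%). Farthest from 0 was Cd247 (−0.95 ± 0.20, or −0.43 after another background correction, normexp). In bulk RNA, fewer cells of a type cannot be told apart from less RNA per cell. On both arrays 53.5% of spots were well above background, and none was saturated. The mean difference of the 8 spike-in probes, which read added control RNA, was −0.24. Dividing the arrays by those probes adds 0.24 to every difference and turns the sign of values between −0.24 and 0.

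All 33 members had at least 1 probe well above background on both arrays. For 29 of them a value was obtained from spots without an outlier flag. The other 4, Atg3, Atg13, Atg16l1 and Ctsd, had 1 spot each, and that spot was flagged for its local background on at least 1 array but not for the spot itself. Their signals ran from 2027 to 10126 with vehicle and from 2631 to 6680 with prednisolone, against a local background of 24 to 33, so their values are given too and are marked as flagged. Among the 29 members 1 was at least 2-fold higher with prednisolone (Mitf) and 4 were at least 2-fold lower (Ulk2, Atg12, Cd63 and Cd68). Over all 13136 genes with a value or a bound, 6.87% exceeded 2-fold upward and 7.81% downward. Below 0 lay 20 of the 29 members, with a median of −0.26, against 49.9% of the 11969 genes measured on both arrays, whose median was 0.00. With flagged spots kept, 21 of 33 lay below 0 (49.8% of genes), and 1 member was higher and 4 were lower by 2-fold (6.92% and 7.93% of genes). Under spike-in scaling 15 of 29 lay below 0 (31.2% of genes), 1 was 2-fold higher and 1 was 2-fold lower (10.9% and 5.12% of genes). After normexp none was 2-fold higher and 2 were 2-fold lower (3.27% and 3.31% of genes).

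**Figure D1:**
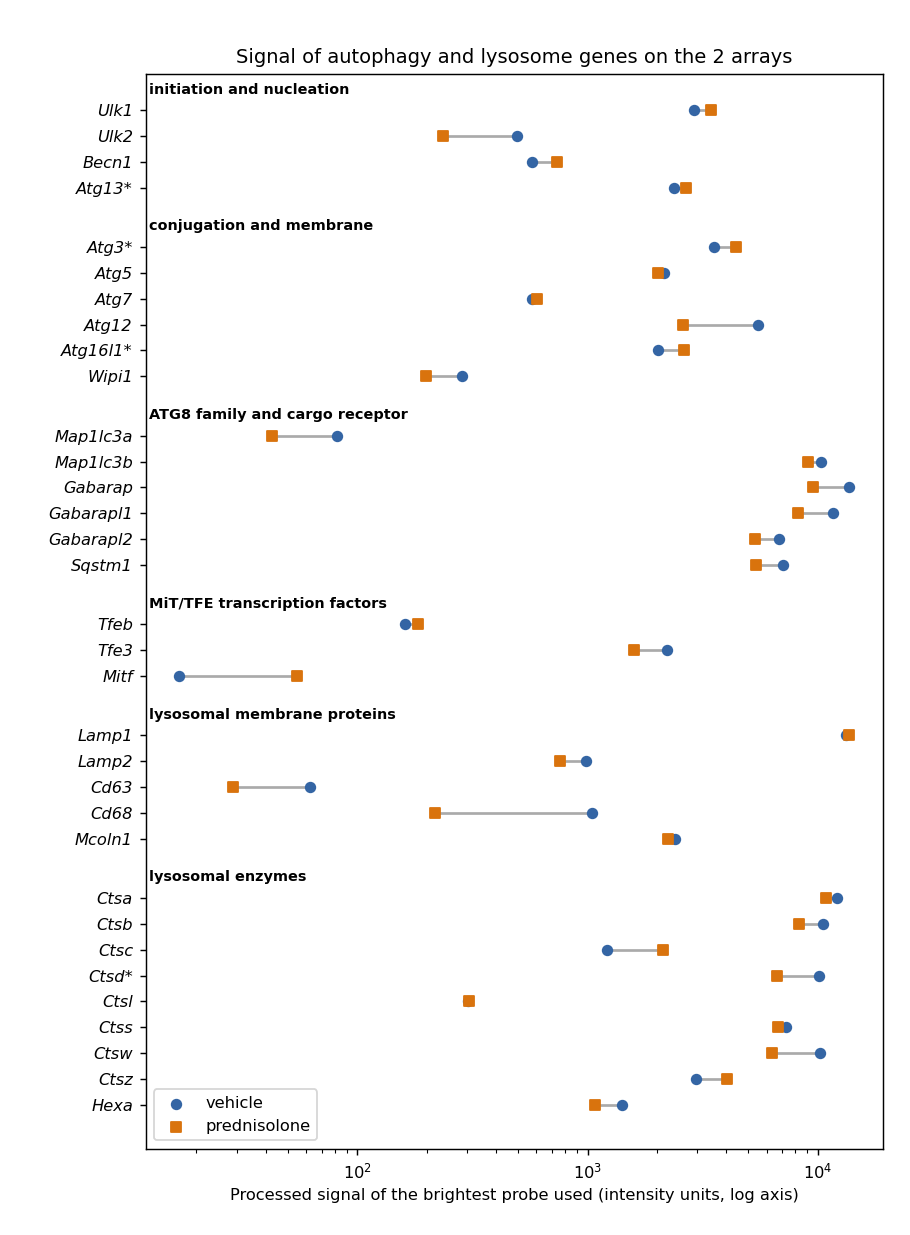
Processed signal of the brightest probe used for each of the 33 genes (x axis, intensity units, log axis) with vehicle (blue circles) and prednisolone (orange squares), joined by a grey line, in groups by role. An asterisk marks the 4 genes with a flagged spot only. The longest lines are those of Cd68 (1045 to 217) and Mitf (16.8 to 54.7).

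Of the promoters of these genes, 5 stretches that hold the E-box core CACGTG are shown here, because the 3 transcription factors among the members bind such sequences. RefSeq promoter windows of assembly GRCm38.p6 (250 bases before to 50 after a start) were found for 27 of the 33 members and not for Becn1, Atg12, Atg16l1, Map1lc3a, Ctsb and Ctsw. CACGTG, which reads the same on both strands, occurred in the 250 bases before a start in 8 of these 27 genes and in 6.86% of the 27025 genes with a promoter entry. The 5 shown are those of the genes with more than 1 copy close together or with the longer core below. The single copies of Atg5, Atg7 and Ctsl, which begin at −14, −132 and −236 from the start, and a second copy in Ctsd, at −245, are not shown. The longer core TCACGTGA, which contains it, occurred in 4 of the 27 (Atg3, Ctsa, Ctsd and Mcoln1) and in 0.907% of the genes. Lamp1 held 4 copies of CACGTG within 70 bases. The stretches below lie at chr8:13159086-13159155 (plus strand) for Lamp1, chr8:3500434-3500488 (plus) for Mcoln1, chr2:164833728-164833771 (plus) for Ctsa, chr7:142387903-142387942 (minus) for Ctsd and chr16:45158719-45158778 (plus) for Atg3. All lie upstream of the annotated start, 5′ to 3′ on the strand of the gene, and the capitals mark CACGTG.
Lamp1: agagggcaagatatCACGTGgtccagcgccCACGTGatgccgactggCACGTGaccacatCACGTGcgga
Mcoln1: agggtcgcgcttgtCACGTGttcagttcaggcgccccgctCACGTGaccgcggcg
Ctsa: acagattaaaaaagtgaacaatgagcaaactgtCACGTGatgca
Ctsd: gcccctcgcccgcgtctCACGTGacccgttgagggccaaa
Atg3: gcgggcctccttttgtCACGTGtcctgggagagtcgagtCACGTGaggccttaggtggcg

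None of the 8 members with CACGTG before the start was 2-fold apart, which with so few genes is near the shares of 6.87% and 7.81% over all genes. Their differences ran from −0.55 (Ctsd, flagged) to 0.37 (Atg3, flagged), with a median of 0.01, 4 below 0 and 4 above. The other 19 members with a promoter entry ran from −2.22 to 1.75 with a median of −0.33, and 4 of them were at least 2-fold apart. Both groups are small, the split was made after the differences were known, and a match of letters is not a measured binding site.

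The genes that start autophagy did not share a direction. The 2 kinase genes of the initiation complex went opposite ways. Ulk1 had 2889 with vehicle and 3438 with prednisolone, a difference of 0.30 ± 0.20. Ulk2, its paralogue, had 496 and 235 on one probe and 201 and 85.5 on the other, so both of its probes were lower with prednisolone. The difference of Ulk2 was −1.11 ± 0.15, or 2.15-fold lower, with its 2 probes at −1.03 and −1.18. It was −0.85 after normexp and −0.87 under spike-in scaling, both short of 2-fold. Becn1 encodes beclin 1, a subunit of the lipid kinase complex, and had 572 with vehicle and 736 with prednisolone (0.41 ± 0.20). Atg13, which encodes the adaptor that holds the initiation complex together, had 2376 and 2679 on its flagged spot (0.22 ± 0.20). Ulk1, Becn1 and Atg13 were thus all brighter on the prednisolone array, by at most 1.33-fold, while Ulk2 was dimmer.

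Among the conjugation genes, Atg12 stood apart from its partners. Atg12 encodes the ubiquitin-like protein that is joined to ATG5, and its probe had 5492 with vehicle and 2594 with prednisolone. The difference of −1.03 ± 0.20 is 2.05-fold lower, and it was −1.06 after normexp and −0.79 under spike-in scaling. The protein partners of ATG12 in the complex that directs ATG8 attachment were not lower by that much. Atg5 had 2151 and 2014 (−0.04 ± 0.20), which is within its technical error. Atg16l1 had 2027 and 2631 on its flagged spot (0.43 ± 0.20). The 2 enzyme genes upstream of both conjugation systems or of ATG8 alone were level or brighter. Atg7, the gene of the E1-like enzyme, had 575 and 606 on its brighter probe (0.07 ± 0.14 over 2 probes), and Atg3, the gene of the E2-like enzyme for ATG8, had 3538 and 4428 on its flagged spot (0.37 ± 0.20). Wipi1 encodes a protein that reads the lipid mark on the growing membrane. Its brighter probe had 284 with vehicle and 198 with prednisolone, and its difference was −0.54 ± 0.20, or −0.29 after normexp. Leaving out flagged spots weighs on this group, whose median was −0.29 over 4 genes without them and 0.01 over all 6 genes with them.

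The ATG8 family and the cargo receptor Sqstm1 lay below 0 in all 6 cases (49.9% of all measured genes), or in 5 under spike-in scaling (31.2%). The ATG8 proteins, LC3 and GABARAP, are the small ubiquitin-like proteins that are tied to the autophagosome membrane, and p62, the product of Sqstm1, carries ubiquitinated cargo to them. Gabarap had 13614 with vehicle and 9493 with prednisolone (−0.47 ± 0.20). Gabarapl1 had 11655 and 8203 on its brighter probe and 654 and 491 on the other, a difference of −0.41 ± 0.14 that both probes shared (−0.46 and −0.36). Gabarapl2 had 6754 and 5332 on its brighter probe (−0.26 ± 0.14 over 2 probes). The 2 LC3 genes differed from each other. Map1lc3b, the main LC3 gene of most cells, had 10326 and 9047 on its brighter probe (−0.11 ± 0.14 over 2 probes), within the technical error. Map1lc3a was dim, at 81.7 and 42.5, and its difference of −0.89 ± 0.23 shrank to −0.35 after normexp. Sqstm1 had 7077 and 5365 on its brighter probe and 812 and 573 on the other (−0.40 ± 0.14). The median of the 6 genes was −0.41, which is 0.41 below that of all measured genes, and none was 2-fold apart. Each of the 6 lay below 0 under every alternative that gave it a value (the stricter filter on dim probes gave none for Map1lc3a) except spike-in scaling, where the median was −0.17 and Map1lc3b was 0.13.

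The 3 genes of the MiT/TFE transcription factors, which are known to switch on autophagy and lysosome genes when they enter the nucleus, differed in direction. Tfeb had 161 with vehicle and 183 with prednisolone on its brightest probe, and its 3 probes lay between 0.10 and 0.23 (0.16 ± 0.14). Tfe3 had 2215 and 1598 (−0.42 ± 0.20), and its second probe did not pass the background threshold. Mitf was the member with the largest excess under prednisolone, at 16.8 and 54.7, or 3.36-fold (1.75 ± 0.34). That rests on 1 dim probe of 3, whose vehicle signal is close to 12.8, the lowest that was well above background on that array. The other 2 Mitf probes, at 2.54 and 5.61 with vehicle and 3.26 and 6.89 with prednisolone, did not pass the background threshold on any array. The Mitf difference was 0.59 after normexp. The transcript levels do not report the nuclear entry of these factors.

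**Figure D2:**
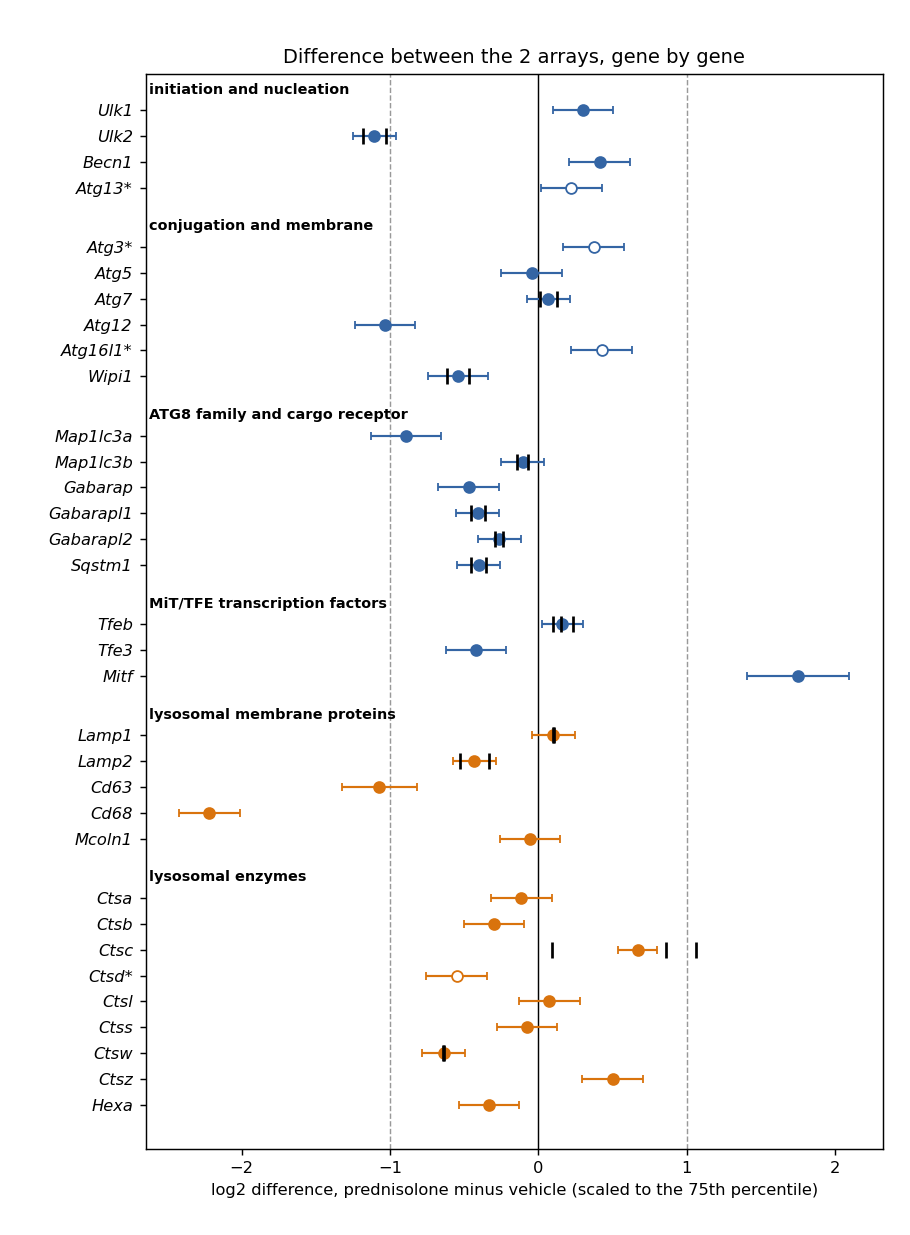
log2 difference, prednisolone minus vehicle (x axis), of each of the 33 genes in groups by role, blue for autophagy and orange for lysosome genes. Bars are the scanner software's error, black ticks are single probes of genes with more than 1, open circles and asterisks mark genes with a flagged spot only, and dashed lines mark 2-fold. All 6 genes of the ATG8 family and cargo receptor group lie below 0 (49.9% of all measured genes do), and Cd68 (−2.22) is the lowest.

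Among the membrane proteins of the lysosome, Cd68 differed most. Its product is a heavily glycosylated protein of late endosomes and lysosomes that is widely used as a macrophage marker. Cd68 had 1045 with vehicle and 217 with prednisolone on its unflagged probe, which is 4.65-fold lower (−2.22 ± 0.20). A second Cd68 probe, flagged for its local background on both arrays, had 314 and 48.2 (−2.65). The difference was −1.97 after normexp and −1.98 under spike-in scaling, so it stayed past 2-fold under each alternative run. Because Cd68 marks macrophages, markers of myeloid and dendritic cells are given beside it. Of 19 such markers with an unflagged probe 6 were well above background on each array, and 12 were not on either, among them Lyz2, Adgre1, C1qa, Mpeg1, Itgax and H2-Aa. Their summed level, in units of the 75th percentile, was 102 with vehicle and 108 with prednisolone. Such a sum leans on its brightest probe, here that of Siglech, and without it was 8.72 and 9.65. What remains leans in turn on Itgam (3166 with vehicle and 3459 with prednisolone, in intensity units). Neither sum therefore shows the level of the list as a whole. The 5 markers measured on both arrays had differences from −0.88 to 0.23 with a median of 0.02, and Cd74, the gene of the invariant chain, was at least 4.61-fold lower. After normexp Cd74 was at −0.74 and no marker of this list was 2-fold apart. Their part in the Cd68 difference was not tested.

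Cd63 encodes a tetraspanin of late endosomes and secretory lysosomes, and its probe was printed 10 times on each array. The 9 unflagged spots ran from 56.7 to 68.3 with vehicle (median 59.9) and from 23.4 to 34.2 with prednisolone (median 28.3). No prednisolone spot reached the lowest vehicle spot. The mean difference was −1.07, with an SD of 0.21 between spots, which is 2.10-fold lower. These signals are dim, and the difference was −0.43 after normexp and −0.83 under spike-in scaling, both short of 2-fold. Spots of 1 array share the same labelled RNA, so this spread is technical.

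**Figure D3:**
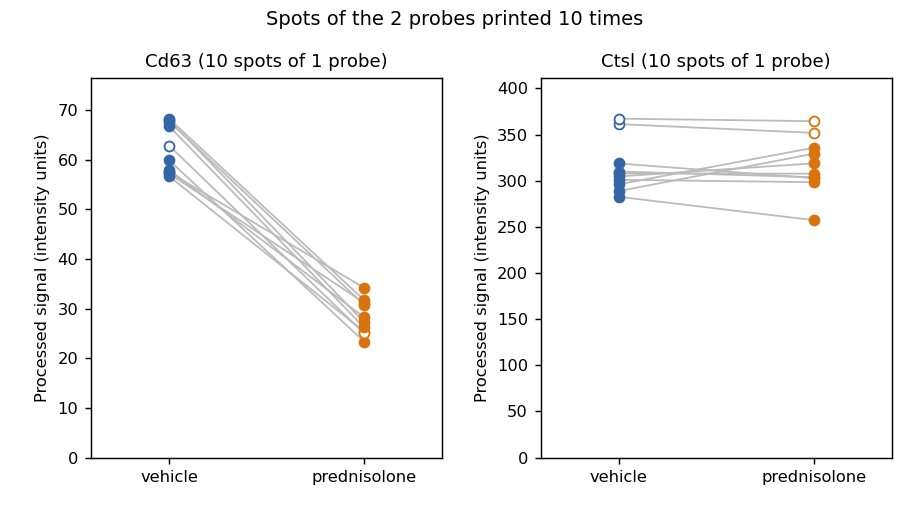
Processed signal (y axis, intensity units, from 0) of each spot of the Cd63 probe (left) and the Ctsl probe (right), both printed 10 times, with vehicle (blue) and prednisolone (orange). A line joins the spot at the same position of the 2 arrays, and open circles are spots with an outlier flag. The Cd63 spots of the 2 arrays do not overlap, and those of Ctsl do.

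The 2 major glycoproteins of the lysosomal membrane gave no such gap. Lamp1 had 13237 with vehicle and 13691 with prednisolone on one probe and 3879 and 4030 on the other, a difference of 0.10 ± 0.14. LAMP1 is also the protein whose surface exposure is read as degranulation of cytotoxic cells, which an array does not measure. Lamp2 had 988 and 756 on one probe and 293 and 196 on the other (−0.43 ± 0.14). Mcoln1, the gene of the lysosomal calcium channel TRPML1, had 2400 and 2230 (−0.06 ± 0.20). The order of these 5 membrane protein genes was therefore Cd68, Cd63, Lamp2, Mcoln1 and Lamp1, and the last 2 were each within their technical error of 0.

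The lysosomal enzymes did not share a direction, and none of the 9 was 2-fold apart. Of the 8 measured without flagged spots, 5 lay below 0 (49.9% of all measured genes) and 3 above, with a median of −0.10. Under spike-in scaling 3 lay below 0 (31.2% of all measured genes) and 5 above. Cathepsin W is a cysteine protease made chiefly by CD8 T and NK cells. Ctsw had 10272 with vehicle and 6357 with prednisolone on one probe and 5240 and 3266 on the other, and both probes gave −0.64 or −0.63 (−0.64 ± 0.14, 1.56-fold lower). Ctsd, the gene of the aspartic protease cathepsin D, had 10126 and 6680 on its flagged spot (−0.55 ± 0.20). Ctsc went the other way. It encodes dipeptidyl peptidase I, which activates the granzymes, and its brightest probe had 1210 and 2119. The mean of its 3 probes was 0.67 ± 0.13, or 1.59-fold higher, but they disagreed, at 0.86, 1.06 and 0.09, and the mean was 0.42 after normexp. Ctsz, the gene of a lysosomal carboxypeptidase, had 2944 and 4021 (0.50 ± 0.20).

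The remaining enzyme genes lay closer to 0. Hexa, the gene of the α subunit of β-hexosaminidase, had 1406 with vehicle and 1079 with prednisolone (−0.33 ± 0.20). Ctsb, the gene of the broadly expressed cathepsin B, had 10509 and 8255 (−0.30 ± 0.20). Ctsa encodes a carboxypeptidase that also protects other lysosomal enzymes and had 12117 and 10811 (−0.11 ± 0.20). Ctss, best known for trimming the invariant chain in antigen-presenting cells, had 7307 and 6690 (−0.08 ± 0.20). Ctsl encodes the cysteine protease cathepsin L, and its probe was printed 10 times. Its 8 unflagged spots ran from 283 to 319 with vehicle (median 303) and from 257 to 336 with prednisolone (median 306), so the arrays overlapped. The mean Ctsl difference was 0.07 with an SD of 0.12 between spots. Ctsa, Ctss and Ctsl were each within the technical error of 0.

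Set side by side, the autophagy genes had a median of −0.33 over the 16 measured without flagged spots, the lysosome genes −0.11 over 13 and the lysosomal enzymes alone −0.10 over 8. With flagged spots kept, the medians were −0.11 over 19, −0.21 over 14 and −0.11 over 9. The order of autophagy and lysosome genes therefore turned with the treatment of 4 flagged spots, and no difference between these groups is given as a result. Under spike-in scaling without flagged spots they were −0.094 for autophagy and 0.12 for lysosome genes.

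Further genes of the pathway came from lists drawn up from general knowledge, with earlier results of these data known. Of 151 measured genes outside the members, 4 exceeded 2-fold upward and 6 downward, with a median of −0.05. Over all genes the shares were 6.87% and 7.81%. After normexp 2 were higher and 3 were lower by 2-fold (3.27% and 3.31% of all genes). Below 0 lay 84 of the 151 (49.9% of all measured genes), or 50 under spike-in scaling (31.2%). The other genes of initiation and nucleation (9 measured) and of conjugation and membrane supply (14) had medians of −0.00 and 0.01 and none was 2-fold apart. Farthest from 0 in these lists were Nrbf2 (0.67 ± 0.14), a partner of the beclin 1 complex, and Atg9a (−0.72 ± 0.21), the gene of the transmembrane lipid scramblase of autophagy. Genes of fusion with the lysosome (13 measured) had a median of 0.01, with Vps33a at 0.73 ± 0.20. Of the autophagy receptors other than Sqstm1, 9 of 10 lay below 0 (49.9% of all measured genes), or 6 under spike-in scaling (31.2%). Their median was −0.43. Tax1bp1 (−0.05 ± 0.12), Retreg1 (−0.07 ± 0.14) and Tollip (−0.15 ± 0.20) were each within the technical error of 0. The probes of Optn disagreed, from −2.16 to 0.34. At least 2-fold lower were 2 genes of this list, Bnip3 and Calcoco1. Bnip3 encodes a mitophagy receptor of the outer mitochondrial membrane that is a known target of hypoxia-inducible factor. It had 40164 with vehicle and 14252 with prednisolone, which is 2.72-fold lower (−1.45 ± 0.20). Calcoco1 was dim, at 82.3 and 19.0 (−2.07 ± 0.28, or −0.78 after normexp).

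On the lysosomal side, 37 further enzymes had a median of −0.20, with 24 below 0 (17 under spike-in scaling). The shares below 0 over all measured genes were 49.9% and 31.2%. Smpd1, the gene of acid sphingomyelinase, had 16112 with vehicle and 6046 with prednisolone and was 2.57-fold lower (−1.36 ± 0.20). Dpp7, the gene of a dipeptidyl peptidase of vesicles, was the 1 enzyme at least 2-fold higher, at 565 and 1405 on its brighter probe (1.23 ± 0.16, or 0.82 after normexp). Among 21 further membrane and carrier proteins the median was −0.31. Mcoln2, a channel gene related to Mcoln1, had 2165 and 907 on its brighter probe. Its difference was −1.14 ± 0.14 over probes at −1.21 and −1.08, and −0.99 after normexp. Clcn7, the gene of the lysosomal chloride-proton exchanger, went the other way, at 1051 and 2067 (1.03 ± 0.20). The proton pump that acidifies the lysosome had a median of 0.03 over 16 subunit genes. Lowest among them were the dim Atp6v0a1 (80.4 and 15.6, −2.32 ± 0.32, or −0.93 after normexp) and the bright Atp6v1a (2390 and 1388, −0.73 ± 0.20, or −0.70 after normexp), the latter under 2-fold and named after its value was seen. Genes that sort enzymes to the lysosome had a median of 0.10 over 8, with Gga2 farthest from 0 (0.55 ± 0.14).

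Regulators of the compartment included larger single differences. Serpinb1a, a serpin gene that the list of cathepsin inhibitors holds, had 3920 with vehicle and 675 with prednisolone, 5.61-fold lower (−2.49 ± 0.20). In the same list Serpinb9, the gene of a granzyme B inhibitor, was 2.32-fold higher, and the cystatin-like Stfa1, Stfa2 and Stfa3 did not pass the background threshold. Of 19 genes that tie the lysosome to mTORC1 and TFEB, 12 lay above 0 and 7 below, with a median of 0.12. Over all measured genes 49.9% lay below 0. Under spike-in scaling 16 of the 19 lay above 0 and 3 below (31.2% of all measured genes), with a median of 0.36. Rragd, which encodes the RagD GTPase of the lysosomal surface, had 203 and 542 on its brighter probe and was 2.84-fold higher (1.51 ± 0.16, or 0.92 after normexp).

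**Figure D4:**
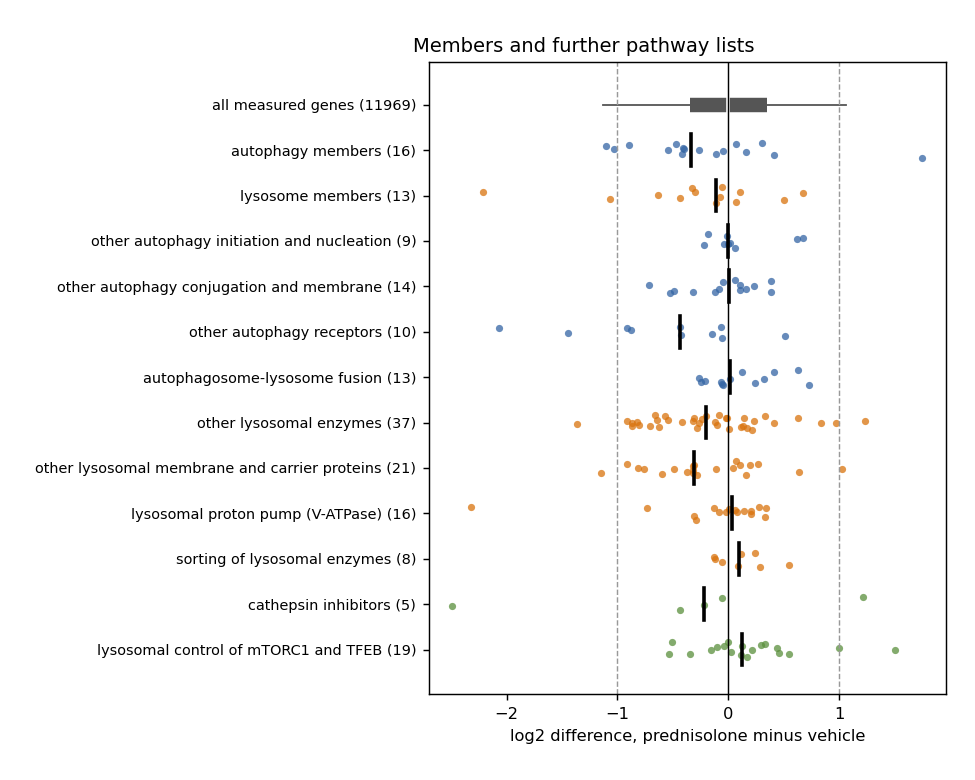
log2 difference, prednisolone minus vehicle (x axis), of the measured members and of the genes of each further list, with the number of genes in brackets. Each dot is a gene (blue autophagy, orange lysosome, green regulators), black bars are medians, dashed lines mark 2-fold, and at the top the thick bar spans percentiles 25 to 75 and the thin line percentiles 5 to 95 of all 11969 measured genes. The medians of all lists shown lie between −0.43 and 0.12.

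**Figure D5:**
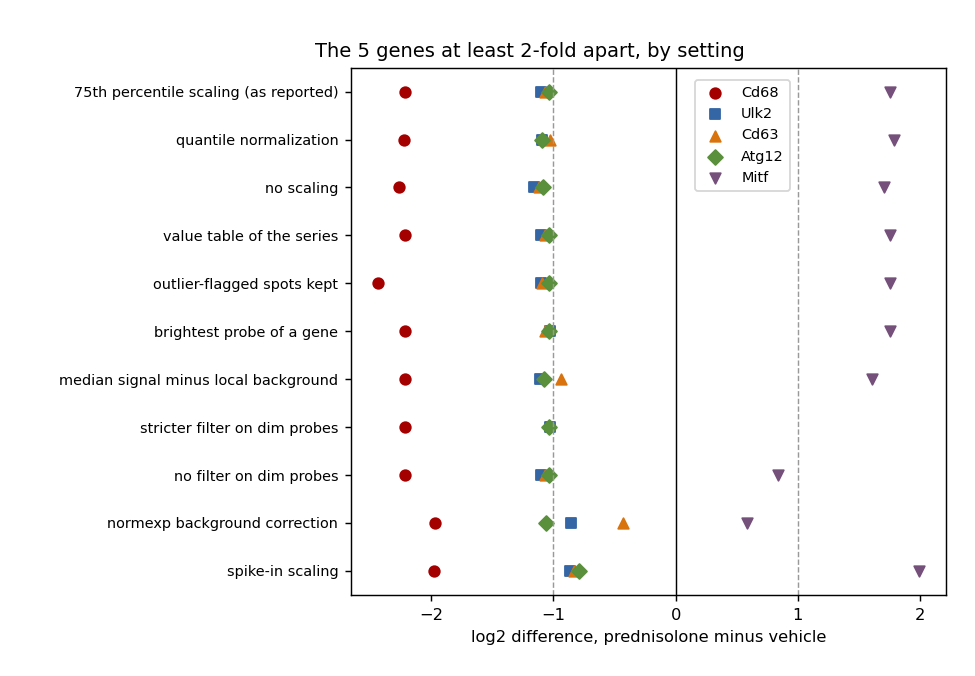
log2 difference, prednisolone minus vehicle (x axis), of the 5 members at least 2-fold apart under the reported setting and the alternatives (y axis), with dashed lines at 2-fold; the stricter filter on dim probes leaves no value for Cd63 and Mitf. Cd68 stays between −2.43 and −1.97, while normexp brings Mitf and Cd63 to 0.59 and −0.43.

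Markers of other cells the culture could hold were mostly dim or not well above background. Of 8 B cell markers with an unflagged probe 5 stayed under the background threshold with either treatment. The summed levels of the list were 0.849 and 0.282 (vehicle and prednisolone, in units of the 75th percentile), and 0.320 and 0.258 without Vpreb3. Vpreb3 was at least 17.4-fold lower (−1.88 as a log2 difference after normexp). Of 8 neutrophil markers 4 stayed under that threshold, with sums of 3.59 and 2.80, or 0.562 and 0.752 without Ly6g. Cxcr2 was at least 5.67-fold higher (1.04 as a log2 difference after normexp). NK cell markers summed to 0.166 and 0.389, and to 0.152 and 0.244 without Klra8. Klra8 was at least 4.51-fold and Klra4 at least 2.09-fold higher. After normexp they were at 0.81 and 0.24 (log2) and thus short of 2-fold. Markers of red cells and platelets summed to 1.05 and 4.39, and to 0.813 and 0.753 without Hba-a1. Hba-a1 was at 3.97 ± 0.17 (2.79 after normexp) and Epor at −2.95 ± 0.29 (−1.32 after normexp). CD4 T cell markers summed to 5.78 and 4.20, and to 1.85 and 1.86 without Ctla4. Ctla4 was at −0.75 ± 0.20, Foxp3 at −0.75 ± 0.22 (−0.35 after normexp) and Cd4 itself at 0.08 ± 0.20. Among the CD8 T cell markers 8 of 10 lay below 0 (49.9% of all measured genes), or 6 under spike-in scaling (31.2%). Their median was −0.38, next to the median of −0.41 of the ATG8 group. The part of cell composition in the differences of the members was not tested.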

How the data were processed

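Both scanner files hold, per the file headers, spot intensity written by Agilent Feature Extraction 12.0.3.1, corrected for background and spatial trend but not scaled between arrays. The deposited value table is the same intensity times 1 constant per array (0.792 and 0.858). Control spots and spots with any outlier flag were left out, spots of a probe and then the probes of a gene that were well above background and unsaturated on both arrays were averaged as log2 values scaled to the 75th percentile. A gene seen on 1 array only has a bound, "at least N-fold". Accessions were named through RefSeq (GRCm38.p6), which named 33767 of 56605 probes. The scanner headers name the build mm9, so no probe coordinates are given. Members and lists were chosen with earlier results of these data known. The named genes are all members, and of each further list up to 4 genes at least 2-fold apart or else the one farthest from 0, and up to 2 markers. Others are named beyond this rule, among them Tax1bp1, Retreg1, Tollip, Optn, Atp6v1a, the Stfa genes and some further markers. Alternatives were normexp (limma 3.58.1, offset 50, on the median spot signal, as the files used here hold no mean signal), quantile, no or spike-in scaling, the value table, flags kept, no or a stricter filter on dim probes (signal over 100), the brightest probe, and the median signal minus local background. The scaling and averaging were tested on simulated data, made from the vehicle array with known changes and random noise added. The simulated array kept the flags and background of the vehicle array, so their handling and the error between arrays were not tested. With 2 arrays, their number limits the precision.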

Additional observations from a re-analysis of the deposited data

How the results depend on the processing

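The median of the autophagy members moved from −0.33 to −0.11 when flagged spots were kept, whether all of them or only those flagged for their local background (the latter chosen after seeing the data), which adds Atg3, Atg13 and Atg16l1, and to −0.094 under spike-in scaling, where that of the lysosome members went from −0.11 to 0.12. The count of members at least 2-fold higher, 1, became 0 after normexp, with no filter on dim probes and with the stricter filter. The count at least 2-fold lower, 4, became 2 after normexp and 1 under spike-in scaling. Spike-in scaling also turned the sign of Atg5, Map1lc3b, Mcoln1, Ctsa and Ctss, and no filter on dim probes that of Tfe3. None of the 5 members at least 2-fold apart changed sign under the alternatives run. Normexp moved 7 of 29 members by more than their technical error, and spike-in scaling, which adds 0.24 to each difference, moved 27. The other settings kept both medians within 0.20, the median technical error of the members, and both counts within 1.5-fold. Beyond spots, nothing here measures error: labelling, hybridisation and culture were not repeated, and dim probes such as those of Mitf, Map1lc3a and Cd63 depend most on the background correction. No paired analysis was possible because there is 1 array per condition.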

Other observations

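For some further pathway genes every spot carried an outlier flag, so that they enter no count above. They were named after their values were seen. With flagged spots kept, Gusb, the gene of the lysosomal β-glucuronidase, was 1.44 (log2 difference), Igf2r, the gene of the large mannose 6-phosphate receptor, was −0.77, Fundc1, which encodes a mitophagy receptor, was −0.73, and Atp6v0d1, a proton pump subunit gene, was −0.53. Psap, the gene of the saposin precursor, was −0.31.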
